A study of Mus musculus with 10 samples.

Results

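Cholesterol and fatty acid synthesis genes were followed in mouse pericytes and oligodendrocyte-lineage cells on 10 Illumina bead arrays. The set holds 34 genes chosen by symbol for their place in the sterol and fatty acid routes: the mevalonate and sterol enzymes, the fatty acid synthesis, elongation and desaturation enzymes, and their regulators. Of these, 31 had a probe under their symbol and all 31 were detected on all 10 arrays, out of 9778 genes tested. Acat2, Mvk and Fdft1 had no probe under their symbol and were not analysed here. All cells came from the strain C57BL/6, in 5 groups of 2 arrays. These were pericytes (PC), contractile cells found on the walls of capillaries, primary cells of the oligodendrocyte lineage (OPC), and induced oligodendrocyte progenitor cells made from pericytes, taken after 5, 15 and 25 passages in culture (titled PC2FiOPC and called iOPC here). For OPC the titles say progenitor and the cell type label says oligodendrocyte. The labels used here do not spell out the factors given to the induced cells or the age of the animals, and do not say whether the arrays of a group came from separate cultures. The p-values below therefore measure the spread between these arrays, whose small number limits the precision.

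Cholesterol is built from acetyl units through mevalonate and squalene to lanosterol, which a last series of enzymes turns into cholesterol. Fatty acids start from the same acetyl units and are then lengthened by the ELOVL enzymes and given double bonds by the SCD and FADS desaturases. The transcription factors SREBP-2 and SREBP-1, encoded by Srebf2 and Srebf1, drive the sterol and the fatty acid genes respectively, with overlap between them, and are released from the endoplasmic reticulum when sterols are low. Oligodendrocytes are known for a high demand for both products, since the myelin they wrap around axons is rich in cholesterol and in very long-chain lipids.

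The arrays came in 2 forms, the signals with their detection p-values and a table of the authors' own normalized log2 values, and columns with the same heading did not hold the same profile in both. Over the 31 genes the mean log2 levels headed PC correlated between the tables at r = 0.986, whereas the signals headed iOPC passage 15 correlated at 0.988 with the values headed OPC and at 0.902 with the values of their own heading. Genes are not independent replicates, and these correlations are given as a description. Over 9403 probes the mean correlation was 0.982 for PC and 0.981 for signals headed passage 15 with values headed OPC. Signals headed OPC, passage 5 and passage 25 correlated best with values headed passage 25, at 0.878, 0.901 and 0.866. No value heading thus matched these signals as closely, and the reason was not tested. Which headings are right was not settled for either table. PC was therefore the group on which both tables could be read together. The comparisons of the members under other headings are given from both. In the signal table, 45.7% to 49.2% of the probes were detected per array, the mean signal ran from 268 to 388 with its lowest values at passage 25 (299 and 268), and the arrays of a group correlated at 0.996 to 0.997 over genes. The value table gave a lower correlation at passage 5, 0.962, and 0.988 to 0.994 in the other groups.

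The bases upstream of 4 members are shown because these genes stand for what follows: Msmo1 and Lss were lower than PC under every heading of both tables, Hmgcs1 was the sterol-route gene called in opposite directions against PC by the tables, and Fads2 had the highest passage 25 difference from PC in the signal table. Each line gives the 250 bases before the transcript start, 5′ to 3′ on the gene's strand, from the RefSeq promoter table on GRCm38.p6. Capitals mark a sterol regulatory element core (TCACNCCAC), a CCAAT box (CCAAT) or a GC box (GGGCGG), each searched on both strands.
Msmo1, chr8:64733579-64733828, minus strand: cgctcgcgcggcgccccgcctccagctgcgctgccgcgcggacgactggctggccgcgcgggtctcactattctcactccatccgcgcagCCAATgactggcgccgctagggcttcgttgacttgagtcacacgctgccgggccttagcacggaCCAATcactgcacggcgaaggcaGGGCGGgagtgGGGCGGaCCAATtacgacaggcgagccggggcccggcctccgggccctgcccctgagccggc
Lss, chr10:76531355-76531604, plus strand: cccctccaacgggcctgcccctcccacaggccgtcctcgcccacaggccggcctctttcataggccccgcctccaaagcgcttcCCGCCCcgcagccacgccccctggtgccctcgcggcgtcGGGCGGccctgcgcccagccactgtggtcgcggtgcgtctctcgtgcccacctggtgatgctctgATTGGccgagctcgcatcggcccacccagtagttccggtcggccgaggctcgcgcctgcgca
Hmgcs1, chr13:119690101-119690350, plus strand: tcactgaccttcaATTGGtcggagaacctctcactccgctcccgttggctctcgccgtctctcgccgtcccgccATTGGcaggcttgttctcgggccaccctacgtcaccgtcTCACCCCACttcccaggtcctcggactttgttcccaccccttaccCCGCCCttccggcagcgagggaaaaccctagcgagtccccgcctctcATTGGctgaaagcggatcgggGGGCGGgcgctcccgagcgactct
Fads2, chr19:10101504-10101753, minus strand: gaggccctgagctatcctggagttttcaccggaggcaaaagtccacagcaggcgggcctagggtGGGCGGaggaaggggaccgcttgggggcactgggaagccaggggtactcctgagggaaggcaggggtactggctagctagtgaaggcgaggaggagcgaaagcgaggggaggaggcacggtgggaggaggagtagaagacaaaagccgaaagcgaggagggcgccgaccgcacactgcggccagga
The Hmgcs1 window holds 1 sterol element core, whose first base lies at position -137 from the start, with 3 CCAAT boxes and 2 GC boxes. The Msmo1 window holds 3 CCAAT boxes and 2 GC boxes, the Lss window 1 and 2, and the Fads2 window 1 GC box and no CCAAT box. A window was found for 27 of the 34 members (34 windows, since some genes have several starts). A CCAAT box was in 22 of these 34 windows (64.7%), against 33.9% of all 32851 promoter windows of this length, and a GC box was in 25 (73.5%), against 32.7%. The sterol element core was in 1 window (2.94%), against 1.05% of all. Matches of different motifs overlapped in an Elovl1 window only, by 2 bases. A match is a description of the letters in this window and says nothing of binding.

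The mean of the 4 other groups was compared with PC in each table, which uses no heading but PC, a comparison added after seeing the data. The profiles of these groups differed between the tables, so a call in both is not a repeat on the same mix of profiles. Of the 10 enzymes of the sterol steps from squalene on, 8 were lower than PC in the signal table and 1, Dhcr7, was higher. By value, 4 were lower and 6 did not pass. On this mean, all 7 enzymes of fatty acid elongation and desaturation were higher in the signal table, and 5 of the 7 in the value table. Not all groups rose. Scd1 and Elovl1 were called lower at passage 15 by signal (-0.98 and -0.91) and in OPC by value (-1.03 and -0.97). Of the 31 genes, 14 were higher and 12 lower in the signal table at an adjusted p under 0.05 in limma's fit (Benjamini-Hochberg over all genes), where 76.1% of all genes were called, 41.8% higher and 34.3% lower. The values gave 11 higher and 5 lower, where 60.9% of all genes were called, 33.8% higher and 27% lower. The members' share called therefore lay near that of all genes in the signal table (26 of 31) and below it in the value table (16 of 31), and what follows is a matter of which genes and which direction. Called lower in both tables were 5 genes, Mvd, Lss, Msmo1, Hsd17b7 and Ebp (16.1% of the members, against 22.3% of all genes). Called higher in both were 9, Hmgcs1, Pmvk, Srebf1, Acss2, Scd2, Elovl1, Elovl6, Fads1 and Fads2 (29%, against 27.4%), and 0 genes were called in opposite directions. Below both PC arrays on all 8 arrays of both tables were 5 genes, Mvd, Lss, Msmo1, Nsdhl and Ebp, where 14.6% of all genes were, and above them 2, Scap and Elovl6, where 14.8% were. Each gene is counted by its brightest probe.

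Both routes were then counted whole. Of 15 mevalonate and sterol genes, 11 were lower and 3 higher than PC in the signal table (median log2 difference -0.91), while by value 5 were lower and 2 higher (median -0.33). Of 11 fatty acid, elongation and desaturation genes, 10 were higher and 0 lower in the signal table (median 0.45), while by value 6 were higher and 0 lower (median 0.39). All tested genes had medians of 0.08 and 0.11. The value-table share of sterol-route genes lower, 5 of 15, lay near the 27% of all genes, and Hmgcs1 and Pmvk of this route were higher in both tables. With no filter on dim probes the 6 fatty acid genes higher by value became 3. Leaving out a PC array leaves less precision, so a lost call does not single out either array. The value table's called members, higher and lower, fell in number without PC replicate 1 and without PC replicate 2, as did its fatty acid genes higher and sterol genes lower. Its count of lower members rose to 9 without passage 5 replicate 1, 8 of them sterol genes, and to 8 without passage 5 replicate 2, each time with 1 fatty acid gene lower, and its count of higher members was 7 without OPC replicate 1. Genes called in both tables numbered 3 higher and 3 lower without PC replicate 2, 6 and 2 without PC replicate 1, and 8 lower without passage 5 replicate 1. Mvd and Msmo1 were called lower in both tables, and Elovl1 and Elovl6 higher, whichever array was left out, but Elovl1 was no longer called higher in both with the mean of its probes. In these bulk samples, fewer cells of a type and less RNA per cell cannot be told apart.

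**Figure D1:**
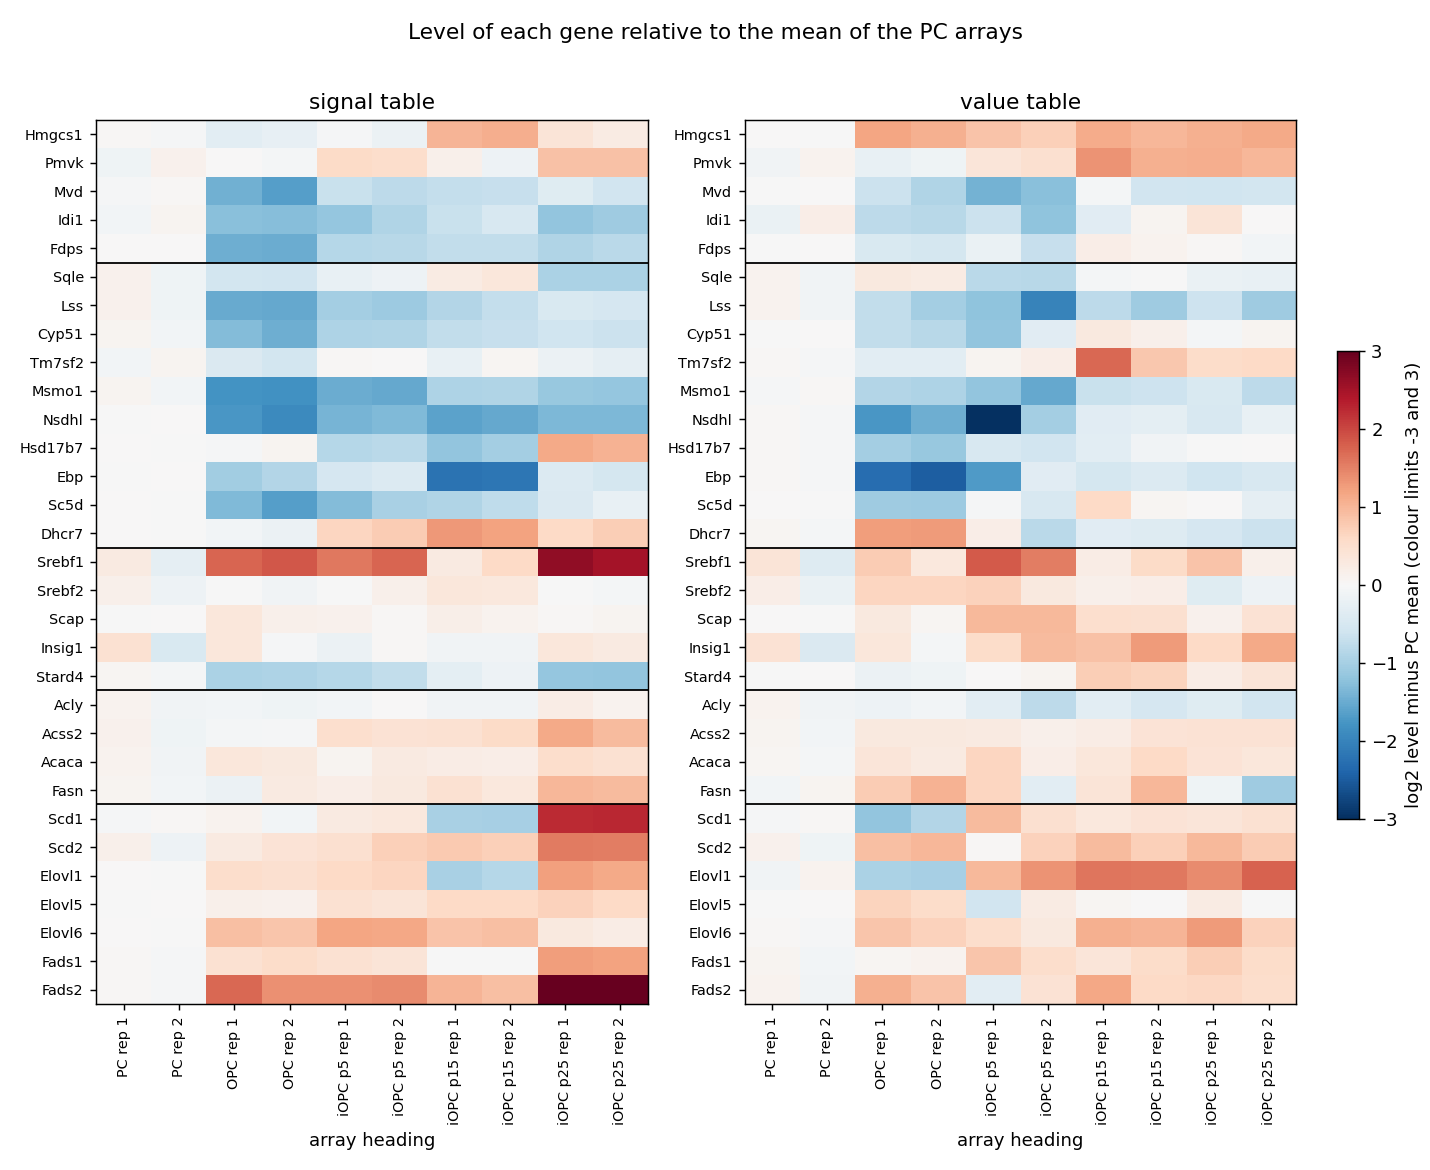
Log2 level of each of the 31 tested genes on each array minus the gene's PC mean, in the signal table and in the value table, with genes ordered by role. Each gene is shown by its brightest probe. Msmo1, Lss, Mvd, Nsdhl and Ebp are below PC on all 8 other arrays of both tables, and Elovl6 is above PC on all 8.

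Among the mevalonate enzymes, Mvd was called lower and Hmgcs1 higher than PC over the 4 other groups in both tables. By signal, Hmgcs1 was not higher under each heading. Mvd, which makes isopentenyl diphosphate from mevalonate diphosphate, had normalized log2 signals of 8.74 and 8.83 in PC, 7.33 and 7.14 in OPC, 8.11 and 8.003 at passage 5, 8.06 and 8.09 at passage 15 and 8.43 and 8.21 at passage 25. All 8 arrays lay below both PC arrays, and so did all 8 in the value table, where PC read 9.18 and 9.21 and the others 7.77 to 9.13. The difference of the 4 groups from PC was -0.86 ± 0.08 in the signal table (± SE, log2 scale, adjusted p = 3.49e-06) and -0.75 ± 0.16 in the value table (adjusted p = 0.00408).

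Hmgcs1, whose product supplies the substrate of the rate-limiting step of the route, read 12.31 and 12.26 in PC, 11.97 and 12.04 in OPC, 12.25 and 12.10 at passage 5, 13.31 and 13.37 at passage 15 and 12.66 and 12.54 at passage 25 in the signal table. The passage 15 and 25 arrays lay above PC and the OPC and passage 5 arrays below it. Among the values PC read 12.56 and 12.54 and the other 8 arrays 13.27 to 13.72, so all 8 lay above PC, by 1.02 ± 0.11 (adjusted p = 0.000106). For the heading OPC this gave opposite calls, -0.28 ± 0.09 in the signal table (adjusted p = 0.0149) and 1.12 ± 0.14 in the value table (adjusted p = 0.000228), while passage 15 was higher by 1.06 and 1.06.

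Idi1, the isomerase of isopentenyl diphosphate, and Fdps, which joins these units to farnesyl diphosphate, were below PC on all 8 other arrays of the signal table. Idi1 read 8.73 and 8.89 in PC, 7.56 and 7.53 in OPC, 7.65 and 7.90 at passage 5, 8.15 and 8.32 at passage 15 and 7.62 and 7.75 at passage 25. Fdps read 12.18 and 12.18 in PC, 10.72 and 10.69 in OPC, 11.31 and 11.34 at passage 5, 11.45 and 11.45 at passage 15 and 11.28 and 11.37 at passage 25, and its difference from PC was -0.98 ± 0.06 in the signal table (adjusted p = 9.06e-08). The value table gave -0.20 ± 0.15 for Fdps (adjusted p = 0.259) and -0.42 ± 0.21 for Idi1 (adjusted p = 0.118), which missed the threshold, with arrays of passage 15 or 25 above PC. Pmvk, the phosphomevalonate kinase, was higher than PC at passage 25 by 0.88 ± 0.11 and 1.04 ± 0.16 in the 2 tables, called in both. For the heading OPC its differences were -0.02 and -0.17, neither called.

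In the sterol part, Msmo1, Lss, Ebp and, by its brightest probe, Nsdhl were below PC on all 8 arrays in both tables. Msmo1, the sterol C4-methyl oxidase, read 11.81 and 11.63 in PC, 9.94 and 9.89 in OPC, 10.23 and 10.17 at passage 5, 10.81 and 10.83 at passage 15 and 10.59 and 10.55 at passage 25. The 4 groups lay 2.54-fold below PC by signal, with -1.34 ± 0.06 (adjusted p = 1.72e-08), and 1.85-fold below in the value table (-0.89 ± 0.14, adjusted p = 0.000992), where the values were 12.01 and 12.07 in PC, 11.15 and 11.11 in OPC, 10.86 and 10.50 at passage 5, 11.36 and 11.42 at passage 15 and 11.58 and 11.25 at passage 25. Lss, the enzyme that closes the rings to lanosterol, read 9.20 and 8.95 in PC, 7.57 and 7.53 in OPC, 8.06 and 7.98 at passage 5, 8.21 and 8.35 at passage 15 and 8.62 and 8.56 at passage 25, a difference of -0.96 ± 0.08 (adjusted p = 1.15e-06), and in the value table -1.06 ± 0.23 (adjusted p = 0.00476). Lss and Msmo1 were the members called lower than PC under each of the 4 headings of both tables. The value-table call of Lss over the 4 groups was lost without PC replicate 1 (-0.96, adjusted p = 0.0524).

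Nsdhl, a dehydrogenase in the removal of the C4 methyl groups, had the largest difference of the sterol genes from PC over the 4 groups of the signal table. Its signals were 8.23 and 8.24 in PC, 6.48 and 6.32 in OPC, 6.85 and 6.91 at passage 5, 6.62 and 6.71 at passage 15 and 6.88 and 6.89 at passage 25, so that the 8 arrays spanned 6.32 to 6.91 and the PC arrays lay at 8.23 and 8.24. The difference from PC was -1.53 ± 0.06 (adjusted p = 6.07e-09), and all 4 of its probes were called lower under each heading in that table. By value, passage 5 replicate 1 read 3.01 and replicate 2 read 7.49, the other 6 arrays read 6.78 to 8.28, and the difference of -1.39 ± 0.92 did not pass (adjusted p = 0.228). Those readings are of its brightest probe. By value its other probes stood 0.07, 0.04 and 0.02 above PC at passage 15, none called. The last of these also stood 0.20 above PC at passage 25, and -0.17 from it at passage 5.

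Ebp, the sterol isomerase, read 10.28 and 10.29 in PC, 9.25 and 9.40 in OPC, 9.78 and 9.89 at passage 5, 8.08 and 8.13 at passage 15 and 9.87 and 9.76 at passage 25. Passage 15 was the lowest group of the signal table, -2.18 ± 0.08 from PC (adjusted p = 2.94e-09). The lowest group of the value table was OPC, at 8.22 and 8.03, -2.37 ± 0.38 from PC (adjusted p = 0.00105), while PC lay at 10.53 and 10.46 and passage 5 at 8.79 and 10.16. Over the 4 groups the difference was -1.02 ± 0.07 and -1.10 ± 0.30, and the value-table one lost its call without PC replicate 1 (adjusted p = 0.0885) or replicate 2 (adjusted p = 0.0738).

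Hsd17b7, a reductase of the C4 removal, was high in 1 group and low in 2. It read 10.45 and 10.41 in PC, 10.39 and 10.50 in OPC, 9.59 and 9.62 at passage 5, 9.25 and 9.42 at passage 15 and 11.57 and 11.47 at passage 25 in the signal table, where passage 25 lay above PC by 1.09 ± 0.09 (adjusted p = 1.09e-06) and passages 5 and 15 lay below it by -0.83 and -1.09. No group mean of the value table lay above PC: the values were 10.72 and 10.65 in PC, 9.67 and 9.55 in OPC, 10.21 and 10.11 at passage 5, 10.38 and 10.57 at passage 15 and 10.67 and 10.69 at passage 25. OPC was the lowest there, -1.07 ± 0.14 from PC (adjusted p = 0.000366), and passage 25 differed by -0.0041 (adjusted p = 0.983).

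Dhcr7, which makes the last double-bond reduction to cholesterol, was the 1 gene of the sterol steps from squalene on that was called higher than PC over the 4 groups of the signal table. Its signals were 8.35 and 8.31 in PC, 8.25 and 8.16 in OPC, 8.97 and 9.09 at passage 5, 9.64 and 9.53 at passage 15 and 8.92 and 9.08 at passage 25, with passage 15 highest and OPC just below PC. Passage 15 differed from PC by 1.25 ± 0.09 (adjusted p = 3.71e-07). The value table had OPC highest at 9.82 and 9.84 against PC at 8.62 and 8.50, 1.27 ± 0.29 (adjusted p = 0.00664), and the other groups differed from PC by -0.30, -0.36 and -0.58, none called.

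Of the other 4 sterol enzymes, Cyp51, Sc5d and Sqle were called lower over the 4 groups of the signal table and Tm7sf2 was not. By value 0 of the 4 were called. Cyp51, the lanosterol demethylase, read 10.03 and 9.84 in PC, 8.63 and 8.47 in OPC, 9.0 and 9.03 at passage 5, 9.20 and 9.24 at passage 15 and 9.34 and 9.30 at passage 25, below PC on all 8 arrays, with -0.91 ± 0.07 (adjusted p = 8.66e-07) against -0.33 ± 0.21 in the value table (adjusted p = 0.205). Sc5d, the sterol desaturase, read 7.02 and 6.98 in PC, 5.69 and 5.34 in OPC, 5.70 and 6.02 at passage 5, 6.09 and 6.24 at passage 15 and 6.57 and 6.78 at passage 25, with -0.95 ± 0.11 (adjusted p = 1.94e-05) against -0.29 ± 0.18 (adjusted p = 0.215). Under the heading OPC both were called lower in both tables. Sqle, the squalene epoxidase, read 11.60 and 11.35 in PC, 10.91 and 10.89 in OPC, 11.24 and 11.31 at passage 5, 11.71 and 11.82 at passage 15 and 10.53 and 10.52 at passage 25, highest at passage 15, where it was called higher than PC (0.29, adjusted p = 0.0165), and lowest at passage 25 (-0.95, adjusted p = 6.53e-06). Its lowest group by value was passage 5, at 11.02 and 10.998. The other Sqle probe above background was not called against PC at passage 15 by signal (0.12, adjusted p = 0.548) and was called lower at passage 25 (-1.20). Tm7sf2, a sterol reductase, spanned 0.52 between group means of the signal table and was called lower there in OPC (-0.49), with 0.03, -0.08 and -0.22 at passages 5, 15 and 25 and no call. By value it was called higher at passage 15, by 1.26 ± 0.27.

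**Figure D2:**
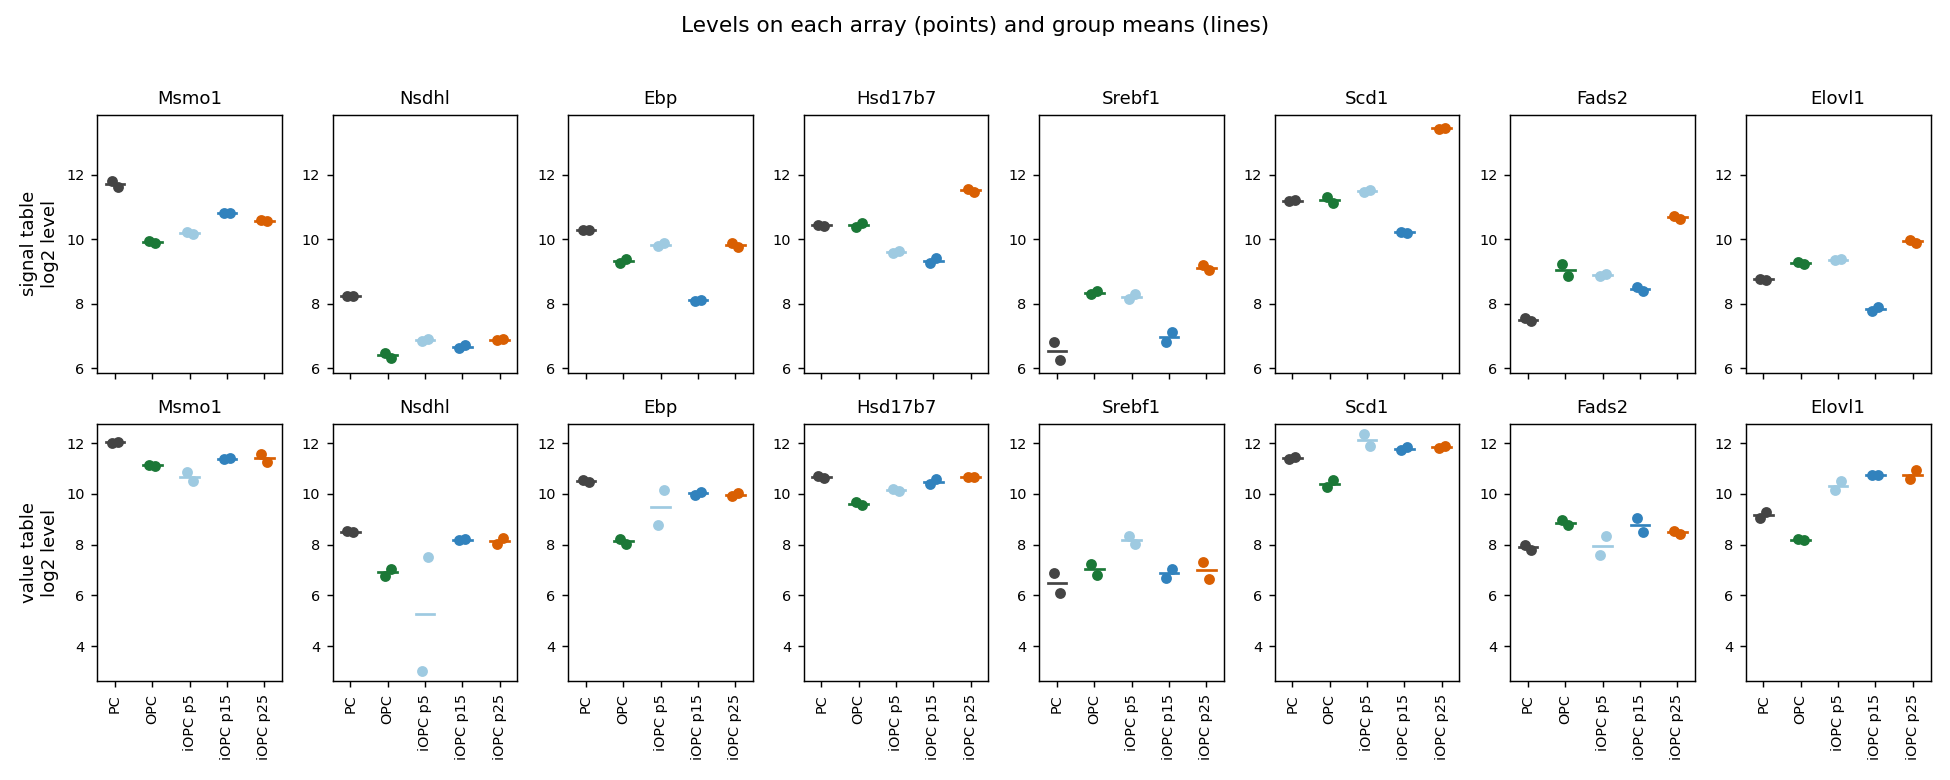
Log2 level of 8 members by group, with the signal table in the upper row and the value table in the lower row, each point 1 array and each line the mean of a group. Passage 25 is highest for Hsd17b7, Srebf1, Scd1, Fads2 and Elovl1 in the signal table, Msmo1 is highest in PC in both tables, and Nsdhl on the passage 5 arrays of the value table reads 3.01 and 7.49.

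Of the fatty acid, elongation and desaturation genes, 10 of 11 were higher than PC at passage 25 of the signal table. Lower calls came from Scd1 and Elovl1, at passage 15 by signal and in OPC by value, and from Acly at passage 5 by value. Fads2, the delta-6 desaturase of polyunsaturated fatty acids, read 7.54 and 7.46 in PC, 9.23 and 8.87 in OPC, 8.87 and 8.92 at passage 5, 8.51 and 8.40 at passage 15 and 10.73 and 10.63 at passage 25. All 8 arrays lay above PC, by 1.55 in OPC, 1.39 at passage 5, 0.96 at passage 15 and 3.18 ± 0.11 at passage 25, a 9.03-fold difference at passage 25 (adjusted p = 2.14e-09). The same 4 differences in the value table were 0.96, 0.05, 0.87 and 0.58, of which OPC and passage 15 were called (adjusted p = 0.0208 and 0.0328), and 1 of the 8 arrays lay below PC.

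Scd1 had the widest span of all members in the signal table. This delta-9 desaturase, which makes oleic acid, read 11.18 and 11.22 in PC, 11.31 and 11.13 in OPC, 11.46 and 11.52 at passage 5, 10.23 and 10.21 at passage 15 and 13.44 and 13.46 at passage 25. Passage 25 lay 2.25 ± 0.08 above PC, 4.76-fold (adjusted p = 2.46e-09), and passage 15 lay below PC by -0.98. By value, OPC was the group below PC, at 10.26 and 10.54 against 11.40 and 11.46 (-1.03 ± 0.19, adjusted p = 0.00232), and passage 25 differed by 0.41 ± 0.19 (adjusted p = 0.107). Scd2, the related desaturase that is prominent in mouse brain, moved more evenly: its signals were 9.03 and 8.71 in PC, 9.13 and 9.28 in OPC, 9.35 and 9.58 at passage 5, 9.64 and 9.59 at passage 15 and 10.43 and 10.41 at passage 25, above PC on all 8 arrays. Its differences from PC were called at passage 25 in both tables, 1.55 ± 0.12 and 0.87 ± 0.24 (adjusted p = 8.38e-07 and 0.0168).

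Elovl1, which elongates saturated very long-chain fatty acids, read 8.76 and 8.74 in PC, 9.28 and 9.23 in OPC, 9.34 and 9.40 at passage 5, 7.78 and 7.90 at passage 15 and 9.98 and 9.90 at passage 25, with passage 15 lowest and passage 25 highest. At passage 15 the tables gave opposite calls, -0.91 ± 0.08 and 1.59 ± 0.19 (adjusted p = 1.81e-06 and 0.000283), and for OPC as well, 0.50 and -0.97. The signals headed passage 15 and the values headed OPC, whose profiles matched, thus gave -0.91 and -0.97. At passages 5 and 25 both tables called it higher than PC. Its 4 probes differed at passage 5 of the value table: 2 were called higher, at 1.16 and 0.99, and the other 2 stood at -1.29 and -1.04 without a call. These other 2 also had no value-table call in OPC (-1.32 and -1.33), at passage 15 (1.05 and 0.58) or at passage 25 (0.80 and 0.55). With the mean of its probes, the value-table calls at passages 15 and 25 were lost (adjusted p = 0.118 and 0.148).

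Elovl6, which lengthens palmitic acid, was above PC on all 8 arrays of both tables. It read 9.11 and 9.07 in PC, 9.99 and 9.92 in OPC, 10.27 and 10.24 at passage 5, 9.94 and 10.0 at passage 15 and 9.37 and 9.32 at passage 25 and differed from PC by 0.79 ± 0.06 in the signal table (adjusted p = 5.11e-07) and 0.80 ± 0.17 in the value table (adjusted p = 0.00414). It was the 1 fatty acid gene whose highest signal-table group was not passage 25: passage 25 lay -0.91 from passage 5. Fads1, the delta-5 desaturase, read 12.33 and 12.27 in PC, 12.75 and 12.84 in OPC, 12.76 and 12.69 at passage 5, 12.29 and 12.30 at passage 15 and 13.56 and 13.50 at passage 25, above PC by 1.23 ± 0.08 at passage 25 and by 0.64 in the value table, both called. Elovl5, which elongates polyunsaturated fatty acids, rose above PC by 0.45 on the 8 arrays of the signal table (adjusted p = 4.85e-05), and its value-table difference of 0.15 did not pass (adjusted p = 0.546).

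The enzymes that supply and join the first carbon units were 3 of 4 higher than PC over the 4 groups by signal and 1 of 4, Acss2, by value. Acss2, which makes acetyl-CoA from acetate, read 8.56 and 8.31 in PC, 8.37 and 8.40 in OPC, 8.93 and 8.88 at passage 5, 8.88 and 9.0 at passage 15 and 9.58 and 9.39 at passage 25, and passage 25 was called higher than PC in both tables, by 1.05 ± 0.10 and 0.43 ± 0.14. Fasn, the fatty acid synthase, had a span of 0.97 between group means of the signal table, was called higher than PC at passages 15 and 25 there (0.39 and 0.97), and was called under 0 of the 4 headings in the value table, where its arrays read 4.72 and 3.76 at passage 5 and 3.95 and 3.01 at passage 25. Its PC mean of 5.20 by signal lay close to the lowest level of a detected probe on those arrays, 4.95. Acaca, the acetyl-CoA carboxylase, was called higher in OPC (0.32) and at passage 25 (0.49) of the signal table only. Acly, the citrate lyase, was called against PC in 1 of the 8 comparisons of the 2 tables, passage 5 of the value table (-0.56, adjusted p = 0.0457).

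Among the regulators, Srebf1 was called higher than PC over the 4 other groups in both tables, and Srebf2 in neither. Srebf1 read 6.82 and 6.26 in PC, 8.29 and 8.41 in OPC, 8.13 and 8.29 at passage 5, 6.82 and 7.13 at passage 15 and 9.20 and 9.04 at passage 25 in the signal table, and 7 of 8 arrays lay above both PC arrays. The difference from PC was 2.58 ± 0.17 at passage 25 (5.98-fold, adjusted p = 2.56e-07) and 1.62 ± 0.13 for the 4 groups. Among the values passage 5 was the highest at 8.33 and 8.01, 1.69 ± 0.34 above PC (adjusted p = 0.00395), passage 25 differed by 0.50 ± 0.34 (adjusted p = 0.251), and the 4 groups by 0.78 ± 0.27 (adjusted p = 0.036). OPC and passage 15 differed by 0.54 and 0.40 there. With no filter on dim probes, Srebf1 was no longer called higher over the 4 groups in both tables. Its other probe was not detected on any array.

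Srebf2 spanned 0.38 between signal-table group means and was called higher at passage 15 (0.32), and in the value table under the heading OPC (0.64). Scap, the escort of both SREBP proteins, had the smallest span of all members, 0.25, and was above PC on all 8 arrays of both tables, although its signal-table difference of 0.13 did not pass (adjusted p = 0.111). Stard4, a carrier of sterols between membranes, read 9.19 and 9.05 in PC, 8.18 and 8.19 in OPC, 8.26 and 8.38 at passage 5, 8.83 and 8.96 at passage 15 and 7.97 and 7.94 at passage 25, below PC on all 8 arrays of the signal table (-0.78 ± 0.07, adjusted p = 2.02e-06), while at passage 15 of the value table it was called higher (0.71 ± 0.14, adjusted p = 0.00305).

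Insig1, which holds SREBP in the endoplasmic reticulum and is itself an SREBP target, depended on the probe. The brightest of its 3 probes above background, which stands for the gene in the counts, differed from PC by 0.16, -0.07, -0.10 and 0.31 in the signal table for OPC and passages 5, 15 and 25, with 0 of the 4 called, and its PC arrays lay at 8.97 and 8.07. The other 2 probes were called lower in all 4 comparisons there, at -0.94, -0.80, -1.15 and -1.07 for one and -0.96, -0.93, -1.06 and -1.16 for the other. Their values differed from PC by -1.23 and -1.23 in OPC, where the second was called (adjusted p = 0.0299) and its arrays read 6.90 and 6.93. At passage 5 they differed by -1.18 and -1.13, the second again called (adjusted p = 0.0433), with arrays that lay far apart at 6.32 and 7.71. At passages 15 and 25 they lay between -0.05 and -0.49 with no call, and the brightest probe was called higher at passage 15, by 1.08.

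**Figure D3:**
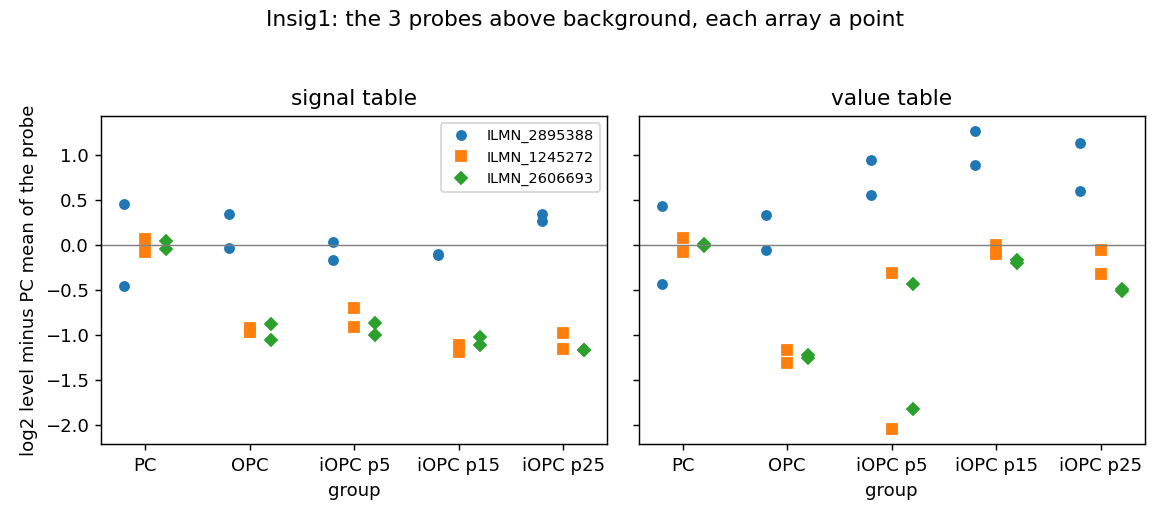
Log2 level of the 3 Insig1 probes above background on each array, minus the probe's own PC mean, by group and table. Among the signals, the square and diamond probes fall by 0.80 to 1.16 in each non-PC group while the round probe lies between its 2 PC arrays.

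By heading, the fatty acid genes stood highest at passage 25 and the sterol genes lowest in OPC in the signal table. Of the 31 members, 8 were higher and 13 lower than PC in OPC (35% and 32.8% of all genes), 11 and 11 at passage 5 (35.7% and 30.7%), 11 and 13 at passage 15 (40.3% and 33.7%) and 15 and 10 at passage 25 (36.8% and 35.7%). The 8 in OPC became 5, and the 11 at passage 15 became 7, without PC replicate 2. With arrays scaled by their median in place of quantiles the 8 became 4. That scaling put the median of all genes at -0.20 at passage 25. The 15 sterol genes were 12 lower in OPC, 10 at passage 5, 10 at passage 15 and 9 at passage 25, with 0, 2, 3 and 4 higher and medians of -1.27, -0.83, -0.72 and -0.48. The 11 fatty acid genes were 6, 8, 6 and 10 higher with 0, 0, 2 and 0 lower, and medians of 0.32, 0.42, 0.39 and 1.05. Median scaling gave 3 and 5 higher for OPC and passage 5, and 4 lower at passage 15. Passage 25 was the highest of the 5 groups for 10 of the 11 fatty acid genes, and OPC the lowest for 12 of the 15 sterol genes. The same ranks over all genes are not given here, so these counts only describe the members. By value, passage 25 was highest for 2 of the 11, and OPC lowest for 7 of the 15.

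The value table placed these groups in another order. Its members called were 6 higher and 10 lower than PC in OPC (30.6% and 25.8% of all genes), 6 and 9 at passage 5 (30.2% and 24.1%), 10 and 2 at passage 15 (29% and 24.5%) and 7 and 3 at passage 25 (29.1% and 24.3%). The sterol genes were 8 lower in OPC, 8 at passage 5 (5 each with no filter on dim probes), 2 at passage 15 and 3 at passage 25, with medians of -0.79, -0.76, -0.13 and -0.13, and 2, 1, 3 and 2 were higher. The fatty acid genes were 3, 3, 4 and 5 higher and 2, 1, 0 and 0 lower, with medians of 0.31, 0.35, 0.47 and 0.43. The mean log2 value over the 15 sterol genes, set against PC, was -0.54 and -0.60 on the 2 OPC arrays and -0.86 and -0.65 at passage 5, but 0.12 and -0.01 at passage 15 and -0.02 and -0.10 at passage 25. The same mean of the signals was -0.95 and -1.02, -0.61 and -0.58, -0.54 and -0.48, and -0.33 and -0.34, below PC on all 8 arrays.

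Leaving out 1 array moved many of these value-table counts. Members higher in OPC fell from 6 to 2 without PC replicate 2 or OPC replicate 2 and to 3 without OPC replicate 1, and members lower there to 6 without PC replicate 2 or OPC replicate 2. The 9 lower at passage 5 became 5 and 4 without PC replicate 1 and 2. The 10 higher at passage 15 became 6 without PC replicate 2 or passage 15 replicate 1. The 7 higher at passage 25 became 4 without PC replicate 2 or passage 25 replicate 1. The 2 lower at passage 15 and 3 lower at passage 25 became 0 without either PC array, and 4 and 6 without either passage 5 array. The 2 became 1 and 0 without passage 15 replicate 1 and 2, and the 3 became 0 without passage 25 replicate 2 and 1 without either OPC array. Within the routes, sterol genes lower in OPC fell from 8 to 4 without PC replicate 2 or OPC replicate 2 and to 5 without OPC replicate 1, and at passage 5 from 8 to 5 and 4 without PC replicate 1 and 2. Sterol genes lower at passages 15 and 25 followed the members, with 4 and 5 without either passage 5 array. Fatty acid genes higher fell from 3 to 1 or 0 in OPC without any 1 of the PC or OPC arrays, from 3 to 1 at passage 5 without PC replicate 2, from 4 to 2 at passage 15 without PC replicate 2 or passage 15 replicate 1, and from 5 to 2 at passage 25 without PC replicate 2 or passage 25 replicate 1. The 1 fatty acid gene lower at passage 5, Acly, was not called without any 1 of the 8 arrays of the other groups, and at passage 25 1 was lower without either passage 5 array.

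**Figure D4:**
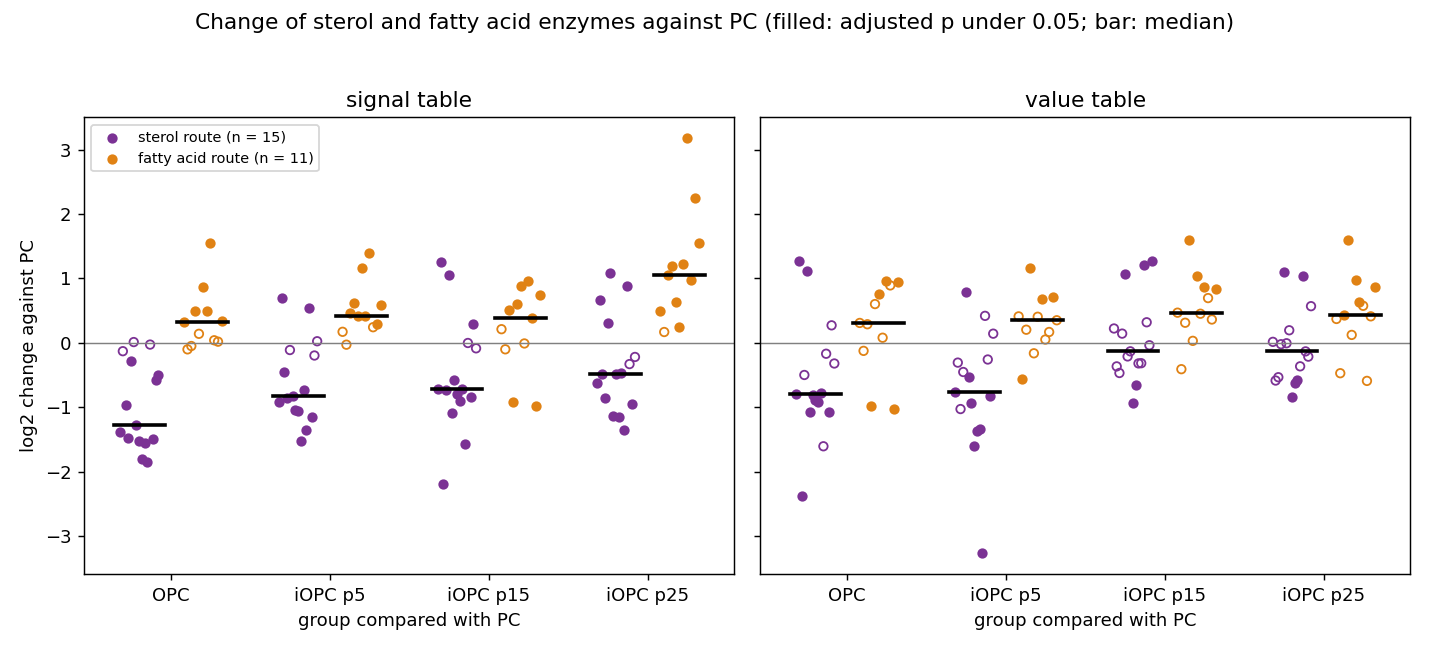
Log2 difference from PC of each of the 15 sterol-route and 11 fatty acid-route genes, by group and table, with filled points at an adjusted p under 0.05 and a bar at the median. The medians of the sterol route lie below 0 and those of the fatty acid route above 0 in all 4 groups of both tables, farthest apart in OPC and at passage 25 of the signal table.

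Compared with the arrays headed OPC, those headed as induced cells were called higher more often than lower under each heading, in both tables. The signals headed passage 15 matched the values headed OPC, so a comparison of these headings may not set the same cells against each other in both tables. By signal, 15 members were higher and 1 lower at passage 5 (21.1% and 18.7% of all genes), 18 and 7 at passage 15 (36.2% and 30.9%) and 23 and 3 at passage 25 (26.7% and 28.9%). The 1 became 2 without OPC replicate 2. The value-table counts were 9 and 5 (25.8% and 23.3%), 10 and 1 (24.5% and 23.8%) and 11 and 4 (24.7% and 23.5%). Called higher in both tables were Pmvk, Ebp and Scd1 at passage 5, Fdps, Cyp51, Tm7sf2, Sc5d and Stard4 at passage 15, and 9 genes at passage 25, Pmvk, Cyp51, Tm7sf2, Hsd17b7, Ebp, Sc5d, Scd1, Elovl1 and Fads1. At passage 25 Scd1 was 2.23 ± 0.08 and 1.44 ± 0.19 above OPC and Sc5d 1.16 ± 0.14 and 0.95 ± 0.23. Sqle, by its brightest probe, was the member called lower in both tables at passage 25. Its other probe was called in neither table at passage 25 (-0.40 and -0.26) or at passage 5 (0.41 and -3.29). Opposite calls came from 5 genes at passage 5 (Mvd, Sqle, Hsd17b7, Dhcr7 and Elovl5), 5 at passage 15 (Hsd17b7, Ebp, Dhcr7, Scd1 and Elovl1) and 3 at passage 25 (Dhcr7, Stard4 and Fasn). For the 5 at passage 15, the signals of that heading and the values headed OPC lay on the same side of PC.

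The value-table counts against OPC also moved with single arrays. Without OPC replicate 1 or 2 the 9 higher at passage 5 became 4 and 3, the 11 higher at passage 25 became 5 each, and the 5 and 4 lower at passages 5 and 25 became 2 each. Without passage 25 replicate 1 or 2 the 11 became 6 and 7, without replicate 2 the 4 became 2, and without either of them the 5 became 3, as it did without either PC array. The 1 lower at passage 15 became 3 without either passage 5 array. The comparisons against PC share the same PC arrays, and those against OPC share the same OPC arrays.

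Over the passages, 26 of the 31 members differed in the signal table by limma's F test over passages 5, 15 and 25, where 81.4% of all genes did. By value 4 did, Pmvk, Mvd, Sqle and Stard4, where 8.94% of all genes did. Passage 25 against passage 5 gave 18 higher and 3 lower members by signal (26.4% and 29.4% of all genes) and 3 higher and 1 lower by value (3.35% and 5.55%). Msmo1 was called higher in both tables (0.37 ± 0.08 and 0.73 ± 0.18), and Sqle was called in opposite directions (-0.75 ± 0.09 and 0.62 ± 0.14). The other Sqle probe was called by signal (-0.81) and not by value (3.02). The largest signal-table difference was Scd1, at 1.96 ± 0.08 (adjusted p = 2.69e-08), and the value table gave -0.30 ± 0.19 for it (adjusted p = 0.356). Fads2 gave 1.78 ± 0.11 and 0.52 ± 0.28 (adjusted p = 5.20e-07 and 0.284). With median scaling the signal-table counts were 11 and 8. The value-table counts of 3 and 1 became 0 and 0 without either array of PC, of OPC or of passage 25, and 9 and 3 without passage 5 replicate 2. They became 1 and 0 without either passage 15 array, and the 1 became 0 without passage 5 replicate 1. The 4 of the F test became 0 without either array of PC, of OPC or of passage 25 or without passage 15 replicate 1, 2 without passage 5 replicate 1 or passage 15 replicate 2, and 12 without passage 5 replicate 2.

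Genes beside the members showed what the rest of lipid metabolism did. Of 55 listed neighbours of the pathway, 41 were tested. Against the mean of PC they were 20 higher and 14 lower by signal, where 41.8% and 34.3% of all genes were, and 15 and 13 by value, where 33.8% and 27% were, over the 4 other groups. Their medians were 0.18 and -0.06. These shares lay near those of all genes. The 9 tested genes of sphingolipid and galactolipid synthesis held the largest differences, in 3 enzymes of myelin lipids. Ugt8a, which makes galactosylceramide, was not well above background in PC and was at least 40.5-fold higher in OPC, 44.4-fold at passage 5, 24.5-fold at passage 15 and 97.7-fold at passage 25 in the signal table. The bound sets the group's mean against the lowest level of a detected probe on the PC arrays. Gal3st1, which sulfates that lipid, was at least 23.1-, 27.5-, 16.4- and 65.9-fold higher, and Fa2h, the fatty acid hydroxylase, at least 7.34-, 6.14-, 7.83- and 51.8-fold. All 3 were called higher under all 4 headings in the value table as well.

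In fatty acid activation and elongation outside the members, Elovl4, the elongase of ultra-long chains, rose in all 4 groups of both tables, by 1.82, 1.12, 3.64 and 0.78 in the signal table and 4.76, 2.30, 2.80 and 3.18 in the value table. Acsl6, a long-chain acyl-CoA synthetase, was at least 9.13-fold above PC at passage 15 and 12.4-fold at passage 25 in the signal table, whereas the value table called it higher in OPC only (6.44). Acsl5, a related synthetase, fell in all 4 groups of the signal table, by 1.10, 1.33, 2.86 and 2.10, and in OPC and at passages 5 and 15 of the value table, where passage 25 gave -0.33 without a call.

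Fatty acid oxidation had 5 tested genes, 3 higher and 1 lower by signal over the 4 groups (41.8% and 34.3% of all genes) and 1 higher and 1 lower by value (33.8% and 27%). Acadl, the long-chain acyl-CoA dehydrogenase, had the widest span. It was called lower in OPC, at passage 5 and at passage 25 of the signal table, at -0.56, -0.47 and -0.99, and higher at passage 15, at 0.24, while by value it was called at passage 5 only (-2.75, adjusted p = 0.0117). Cpt2, a carnitine palmitoyltransferase, was called higher at passages 5 and 25 by signal, at 0.32 and 0.61, and under 0 of the 4 headings by value. Hadhb, a subunit of the trifunctional protein, was called higher at passages 5, 15 and 25 in the signal table, by 0.22, 0.69 and 0.31, and under all 4 headings of the value table. Among the sterol handling genes, Nr1h3, the liver X receptor alpha that senses oxysterols, fell by 2.06 in OPC of the signal table. At passages 5, 15 and 25 it was not well above background there, at least 5.31-, 5.43- and 4.92-fold lower than PC. Its value-table differences from PC were -4.29, -5.44, -5.94 and -5.82 under the 4 headings. Apoe, the lipid carrier protein, was called in opposite directions at passages 15 and 25 by the tables, 0.77 and 2.90 in the signal table and -1.73 and -1.36 in the value table. In OPC it was called higher in both, at 0.85 and 1.76. At passage 5 it was called lower in both, where it was not well above background in the signals (at least 1.58-fold) and stood at -1.35 by value. Abcg1, a transporter that exports sterols, was not well above background in PC and was at least 1.94-fold higher at passage 15 by signal. By value it was called in OPC only, at 3.76.

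Of the 4 tested genes beside the members in sterol synthesis and SREBP processing, Insig2, a relative of Insig1, was called lower at passages 15 and 25 in both tables, at -1.16 and -0.76 by signal and -1.08 and -0.92 by value. At passage 5 the tables gave opposite calls for it, 0.35 and -0.999 (adjusted p = 0.00349 and 0.00085), and in OPC it was called by value only, at -1.23. Erlin2, which takes part in the degradation of endoplasmic reticulum proteins, was called lower in OPC and at passages 5 and 25 by signal, at -1.001, -0.83 and -0.96, and at passages 5 and 25 by value, at -0.54 and -0.51. Mbtps1, the protease that makes the first cut of SREBP, was called higher in those 3 groups by signal, at 0.96, 0.57 and 0.59, and under 0 of the 4 headings against PC by value.

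Markers of cell types moved with these groups, and their part in the results above was not tested. A marker is counted here as detected on 1 or more arrays of a group of the signal table. Of 5 tested pericyte and mural markers 5 were detected in PC, 4 in OPC, 3 at passage 5 and 2 each at passages 15 and 25, with summed normalized signals of 3330 to 3400 in PC, 2910 to 3170 in OPC, 1860 to 1930 at passage 5, 505 to 525 at passage 15 and 1710 to 1750 at passage 25. The same sums of the values, back on a linear scale, were 3940 to 3960 in PC, 548 to 560 in OPC, 3490 to 5120 at passage 5, 1970 to 2180 at passage 15 and 1880 to 1950 at passage 25. Pdgfrb, a receptor on the pericyte and mural list, stood at 8.39 in PC and 4.21 to 5.01 in the other groups by signal, and at 8.50 and 1.76 to 2.16 by value. Mcam, an adhesion molecule on the same list, went the other way, called higher than PC under all 4 headings of both tables. Its signals were 6.02 in PC, 11.27 in OPC, 10.69, 6.89 and 9.99 at passages 5, 15 and 25. Its values were 5.86, 7.01, 11.76, 10.77 and 10.64. The list's sums therefore hold a member that rose. Of 5 tested myelinating oligodendrocyte markers, 1 was detected in PC, 4 in OPC, 3 at passage 5, 2 at passage 15 and 5 at passage 25, with summed signals of 171 to 195, 2040 to 2100, 2610 to 2680, 1160 to 1200 and 16700 to 17900. Their summed values were 110 to 126, 1500 to 1590, 4260 to 4850, 6670 to 7670 and 11500 to 11900. Mag and Mog, 2 proteins of mature myelin, had their highest group means at passage 25 of the signal table, 12.74 and 11.23. In PC they stood at 4.38 and 4.32. Scd1, Fads2 and Srebf1 were also highest at passage 25 by signal. By value, Scd1 and Srebf1 were instead highest at passage 5 (12.14 and 8.17) and Fads2 in OPC (8.87). Among the values Mag and Mog stood at 9.26 and 9.97 at passage 5, 10.90 and 10.37 at passage 15 and 11.75 and 10.82 at passage 25, and at 2.74 and 1.80 in OPC. Of 6 tested OPC markers, 2 were detected in PC, 5 in OPC, 4 at passage 5, 6 at passage 15 and 5 at passage 25, with summed signals of 739 to 777, 5130 to 5180, 6510 to 6660, 23500 to 24800 and 5720 to 5860. By value the sum was 781 to 803 in PC and highest in OPC, at 27400 to 29000, against 6780 to 8200 in the induced cells. Olig2 and Nkx2-2, factors of oligodendrocyte progenitors, had signals of 8.04 and 10.95 at passage 15 against 4.88 and 4.23 in OPC, and values of 8.28 and 11.23 in OPC. Of 4 tested fibroblast markers, 0 were detected at passage 15 and 4 in OPC, where their summed signal of 7800 to 8520 was the highest of the groups against 78.1 to 78.6 at passage 15. The values turned this around, with a sum of 12.2 to 13 in OPC and of 562 to 631 at passage 15. Lum, Dcn, Col1a1 and Col1a2 stood at 1.51, 1.39, 2.31 and 1.10 in OPC there. At passage 15 they stood at 7.78, 5.32, 8.27 and 4.62. Of 4 tested astrocyte markers 3 were detected at passages 15 and 25 and 2 elsewhere, with a sum of 5880 to 6080 at passage 15 and 119 to 521 in the other groups. By value this sum was highest in OPC, at 7130 to 7760, against 62.4 to 818 in the other groups. The markers of microglia and endothelium that had a probe were not above background on enough arrays to be tested. Of the neuronal markers Syt1 was detected at passage 15 alone by signal, and by value it stood at 1.56 in PC and 6.13 to 6.81 in the other groups.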

How the data were processed

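RNA was measured as biotin-labelled cRNA on Illumina bead arrays. Per the labels, a further amplification kit was used for RNA of sorted transplanted cells, with no statement of whether such RNA was on the arrays used here. The submitters' processing notes name BeadStudio 3.2, RMA and lumi, with no role stated. Per the file headers, the deposited signals are non-normalized: 1 intensity for a probe on an array, beside its detection p-value. The values that the authors deposited are on the log2 scale, and all columns share 1 median. Its background correction is not given in the sources used here.

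Background was corrected by normexp, with the negative controls' level inferred from the detection p-values and an offset of 16 (nec of limma 3.58.1, R 4.3.3), followed by quantile normalization and log2. A probe was kept where 2 or more of the 10 arrays had a detection p-value below 0.01, and the brightest probe of a gene was used in both tables. Each table was fitted with lmFit and eBayes (5 groups, 5 residual degrees of freedom). There were 8 comparisons between groups, an F test over the passages and, added after seeing the data, the 4 other groups against PC. P-values were two-sided and adjusted by Benjamini-Hochberg over 9778 genes, and a gene was called at under 0.05. The scripts were tested on simulated data.

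Members and lists were chosen with earlier results of these data known. All members are accounted for, those with a span of at least 2-fold between signal-table group means are given by array, and named neighbours are, per role, up to 3 with the widest span among those called in both tables. Symbols came from the platform annotation, updated through RefSeq, and promoter windows from RefSeq (GRCm38.p6). Alternatives were other filters, probe rules, scalings, variance models, a replicate block and leaving out arrays. Python 3.11.15 with matplotlib 3.10.9 drew the plots.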

Additional observations from a re-analysis of the deposited data

Results flagged for a closer look

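Hsd17b7, the C4-removal reductase of the sterol route, was called in opposite directions against PC at passages 5 and 25 of the signal table. Passage 5 lay -0.83 from PC and passage 25 lay 1.09 above it (log2), on 2 arrays each that did not overlap with PC. The difference between passage 25 and passage 5 was itself tested and stood at 1.92 (limma, adjusted p = 4.26e-08). By value, passage 5 lay -0.52 and passage 25 about level with PC, and their difference of 0.52 did not pass (adjusted p = 0.0647).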

How the results depend on the processing

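For the signals, 58 member differences of at least 2-fold kept direction and call under each alternative run. Of 47 in the value table, 1 reversed: Elovl1 at passage 5 against PC, 1.16 with its brightest probe, was -0.0418 with the mean of its probes (adjusted p = 0.955). Leaving out 1 array lost 36 value-table calls counted over all arrays, and other settings lost 12. The cause was not tested. Members higher in the signal table went from 8 to 4 in OPC against PC, and from 18 higher and 3 lower to 11 and 8 at passage 25 against 5, under median scaling. For the values, testing all probes gave 6 higher over the 4 groups against PC (11 in the report), 5 lower at passage 5, 1 lower at passage 15 and 0 lower at passage 25 against PC, 2 lower at passage 5 and 7 higher at passage 25 against OPC, and 0 and 0 at passage 25 against 5 with 0 over the passages. A variance trend gave 10 higher at passage 5 against PC, 10 lower at passage 5 and 3 lower at passage 15 against OPC, 9 and 3 at passage 25 against 5, and 14 over the passages. Probes detected on all 10 arrays gave 6 and 2 at passage 25 against 5 and 7 over the passages, the mean of the probes gave 1 over the passages, and leaving out both passage 15 arrays gave 1 and 0 at passage 25 against 5. Genes called higher in both tables over the 4 groups numbered 5 with all probes and 6 without both passage 15 arrays. Among the route counts, testing all probes gave 3 fatty acid genes higher by value over the 4 groups (6 in the report), and 5, 5, 1 and 0 sterol genes lower in OPC and at passages 5, 15 and 25. Median scaling gave 1 fatty acid gene lower by signal in OPC, at passage 5 and over the 4 groups.

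With the replicate number as a block, value-table members at passage 25 against 5 were 0 and 0 and those over the passages 1. Like numbers did not pair arrays: correlations of their deviations ran from -0.05 to 0.13 in the signal table and from -0.08 to 0.10 in the value table. Fatty acid genes lower by value over the 4 groups against PC went from 0 to 1 with the block, as they did with probes detected on all 10 arrays and with a variance trend. No other member count moved by over 1.5 times with the block.

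Leaving out 1 array gave these ranges. By signal, members higher than PC were 5 to 8 in OPC and 7 to 12 at passage 15, and those lower than OPC at passage 5 were 1 to 2. By value, higher and lower members against PC were 2 to 7 and 6 to 12 in OPC, 6 to 12 and 0 to 4 at passage 15, 4 to 9 and 0 to 6 at passage 25, and 4 to 12 and 2 to 9 over the 4 groups, and lower at passage 5 were 4 to 10. Against OPC they were 3 to 10 and 2 to 6 at passage 5 and 5 to 13 and 2 to 5 at passage 25, and 1 to 3 lower at passage 15. Passage 25 against 5 gave 0 to 9 and 0 to 3, and the passages 0 to 12. With 1 array of a group left, that array is assumed to vary like the other groups.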
